A study of Mus musculus with 8 samples.

Results

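The genes described here are 9 that sense nucleic acids in the cytosol or regulate that sensing, taken as a named list with no threshold on a measured value, though with earlier results of these data known: *Ddx58*, *Ifih1*, *Dhx58*, *Mavs*, *Zbp1*, *Eif2ak2*, *Adar*, *Trex1* and *Samhd1*. All 9 had a row among the 50615 genes of the deposited table, and all 9 were among the 17625 genes tested. The sequenced RNA came from bone marrow-derived macrophages (BMDMs), cells grown out of marrow over 6 days in M-CSF at 20 ng/ml. *Ncoa6*-KO BMDMs came from *Ncoa6* fl/fl *LysM* CRE mice, in which the lysozyme 2 locus drives Cre in myeloid cells so that floxed *Ncoa6* sequence is cut out there. *Ncoa6*-sufficient BMDMs came from *Ncoa6* fl/fl mice, which the sample labels call WT. The age of the mice is not given in the sources used here. Both genotypes were C57BL/6 and carried the floxed allele, whereas Cre was present in the *Ncoa6*-KO mice alone. Cultures of either genotype stayed in medium alone (unstimulated) or were primed for 4 h with LPS at 100 ng/ml and exposed for a further 2 h to monosodium urate (MSU) crystals at 200 µg/ml. There were 4 groups with 2 libraries apiece, called the first and the second library after the numbers in the labels. The 2 libraries of a group came from different mice. Whether cultures in medium and with LPS + MSU came from the same mice is not given in the sources used here.

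RIG-I (*Ddx58*) and MDA5 (*Ifih1*) are helicases that bind viral double-stranded RNA in the cytosol, and LGP2 (*Dhx58*) is a related helicase without a signaling domain that modulates both. Bound RIG-I and MDA5 signal through MAVS on the mitochondrial surface to the kinases TBK1 and IKKε, to IRF3 and IRF7 and so to type I interferon, which in turn raises many of the sensors, so that most of these genes are known as interferon-stimulated genes in macrophages. ZBP1 binds Z-form nucleic acids and can start RIPK3- and MLKL-dependent cell death, and PKR (*Eif2ak2*) stops translation when it binds double-stranded RNA. ADAR1 (*Adar*), TREX1 and SAMHD1 hold the system back or restrict viruses by editing double-stranded RNA, degrading DNA and depleting deoxynucleotides.

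Library totals ran from 25281955 to 33673552 expected counts. *Ncoa6*, the targeted gene, had 1515 and 1405 normalized counts (scaled to a common library size) in unstimulated *Ncoa6*-sufficient libraries against 784 and 622 in *Ncoa6*-KO libraries, and 1297 and 1173 against 563 and 526 with LPS + MSU. It was lower in *Ncoa6*-KO than in *Ncoa6*-sufficient BMDMs both with medium alone (log2 fold change -1.05, adjusted p = 0.00236 by edgeR's quasi-likelihood test) and with LPS + MSU (-1.18, adjusted p = 0.00189 by the same test). By the paper, an exon of *Ncoa6* is floxed, whereas these counts cover all exons of the gene. How much of the remaining count comes from transcripts without that exon was not tested. All 8 macrophage markers examined were detected, with summed levels from 8487 to 19695 CPM (counts scaled to library size), whereas B cell markers summed to at most 1.71 CPM and T and NK cell markers to at most 3.79 CPM. Neutrophil markers summed to at most 30.2 CPM, with *Ly6g*, *Elane*, *Mpo* and *Retnlg* under 1 CPM in every library. Of the 6 dendritic cell markers, *Flt3*, *Zbtb46* and *Siglech* were under 1 CPM in every library, whereas *Bst2* had group means from 97.5 to 581 CPM. *Xcr1* went from 0.284 CPM in unstimulated *Ncoa6*-sufficient BMDMs to 5.25 CPM with LPS + MSU and *Ccr9* from 0.126 to 2.26 CPM (group means). The sums for osteoclast and stromal cell markers did not exceed 36.5 and 28.0 CPM, that for mast cell and basophil markers did not exceed 0.382 CPM, and endothelial markers reached 236 CPM, nearly all from *Kdr*.

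The 9 genes lie on 6 chromosomes of GRCm38. *Ifih1* (chr2:62595798-62646255), *Mavs* (chr2:131234063-131248025), *Samhd1* (chr2:157097533-157135265) and *Zbp1* (chr2:173206612-173218923) share chromosome 2 with *Ncoa6*, and *Samhd1* is the nearest of them, 1623639 bp away. *Ddx58* (chr4:40203773-40239828), *Dhx58* (chr11:100694884-100704271), *Eif2ak2* (chr17:78852564-78882573), *Adar* (chr3:89715022-89753446) and *Trex1* (chr9:109057933-109059734) lie elsewhere. All 1147 exon bases of *Trex1* are also annotated as exon of *Atrip* on the same strand, and none of the 8 expected counts of *Trex1* was a whole number, so the division of reads between *Trex1* and *Atrip* rests on the estimate and the values of *Trex1* are uncertain to that extent. *Dhx58* shares 141 exon bases with an antisense gene, *Adar*, likewise with no whole value among 8, shares 1365 with *Chrnb2* on the other strand, and *Eif2ak2* also overlaps antisense exons. The libraries were stranded.

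Because most of these genes moved together, their promoters were read for the elements that interferon-activated factors bind. RefSeq promoters on GRCm38.p6, from 250 bases before the start of transcription to 50 after it, were at hand for 7 of the 9 genes (10 start sites), and not for *Dhx58* and *Zbp1*. The interferon-stimulated response element was searched in full as a pair of GAAA repeats with any 2 bases between them, as the shorter GAAANNGAA that the full form contains, and, added after reading the sequences, with a single base between the repeats as GAAANGAAA. The element that STAT dimers bind was searched as TTCNNNGAA, always on both strands. The full form occurred in the promoters of *Ddx58*, *Ifih1* and *Eif2ak2*, while 3.43% of 32817 promoters of this length held it. The following windows of 30 bases, with the matched element in capitals, show these sites and the related ones of *Ddx58* and *Adar*.
Ddx58, bases -60 to -52, chr4:40239866-40239895, reverse strand: tctaggttcaGAAACGAAActggatccccg
Ddx58, bases 3 to 12, chr4:40239804-40239833, reverse strand: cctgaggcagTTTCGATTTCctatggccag
Ifih1, bases 33 to 42, chr2:62646206-62646235, reverse strand: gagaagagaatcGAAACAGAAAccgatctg
Eif2ak2, bases 19 to 28, chr17:78882535-78882564, reverse strand: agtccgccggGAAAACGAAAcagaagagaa
Adar, bases 34 to 42 of the third start site, chr3:89730738-89730767, forward strand: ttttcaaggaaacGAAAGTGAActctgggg

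Positions count from the first transcribed base as 1. The *Ddx58* window after the start holds the full form on the opposite strand, and the *Ddx58* window before it holds the single-base spacing, found in 3.17% of promoters. Because that spacing was added after these sequences were read, its matches in *Ddx58* and *Adar* cannot be weighed against that share. The *Adar* window holds the shorter GAAANNGAA, overlapped by a GAAANGAAA match at bases 29 to 37, and this shorter form was found in 8.55% of promoters. The other two *Adar* start sites had none of the 4 patterns. Further matches of the shorter form lay at bases -249 to -241 of that *Adar* promoter, -112 to -104 of *Ifih1* and 25 to 33 of *Eif2ak2*. TTCNNNGAA, found in 8.29% of promoters, occurred in *Eif2ak2*, *Samhd1* and the same *Adar* promoter. None of the 4 patterns was in the windows of *Mavs* or of both *Trex1* start sites, which says only that these letters are not there, and a match likewise describes letters and not binding.

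With medium alone, 4 of the 9 genes were lower in *Ncoa6*-KO than in *Ncoa6*-sufficient BMDMs (*Ddx58*, *Dhx58*, *Zbp1* and *Trex1*) and none was higher. Over all genes tested 1.3% were called lower. At an unadjusted p under 0.05, 8 of the 9 were lower, all but *Mavs*, against 7.86% of all genes. Both *Ncoa6*-KO libraries lay below both *Ncoa6*-sufficient libraries for all 9 genes, an arrangement that 24.5% of all genes had. The median log2 fold change was -0.62 for the 9 genes and -0.03 for all genes tested. Leaving out single libraries moved the count of 4: it became 0 without the first *Ncoa6*-sufficient library in medium, 2 without the second, 7 without the first *Ncoa6*-KO library in medium and 1 without the second. In bulk RNA, fewer cells of a type and less RNA per cell cannot be told apart.

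**Figure D1:**
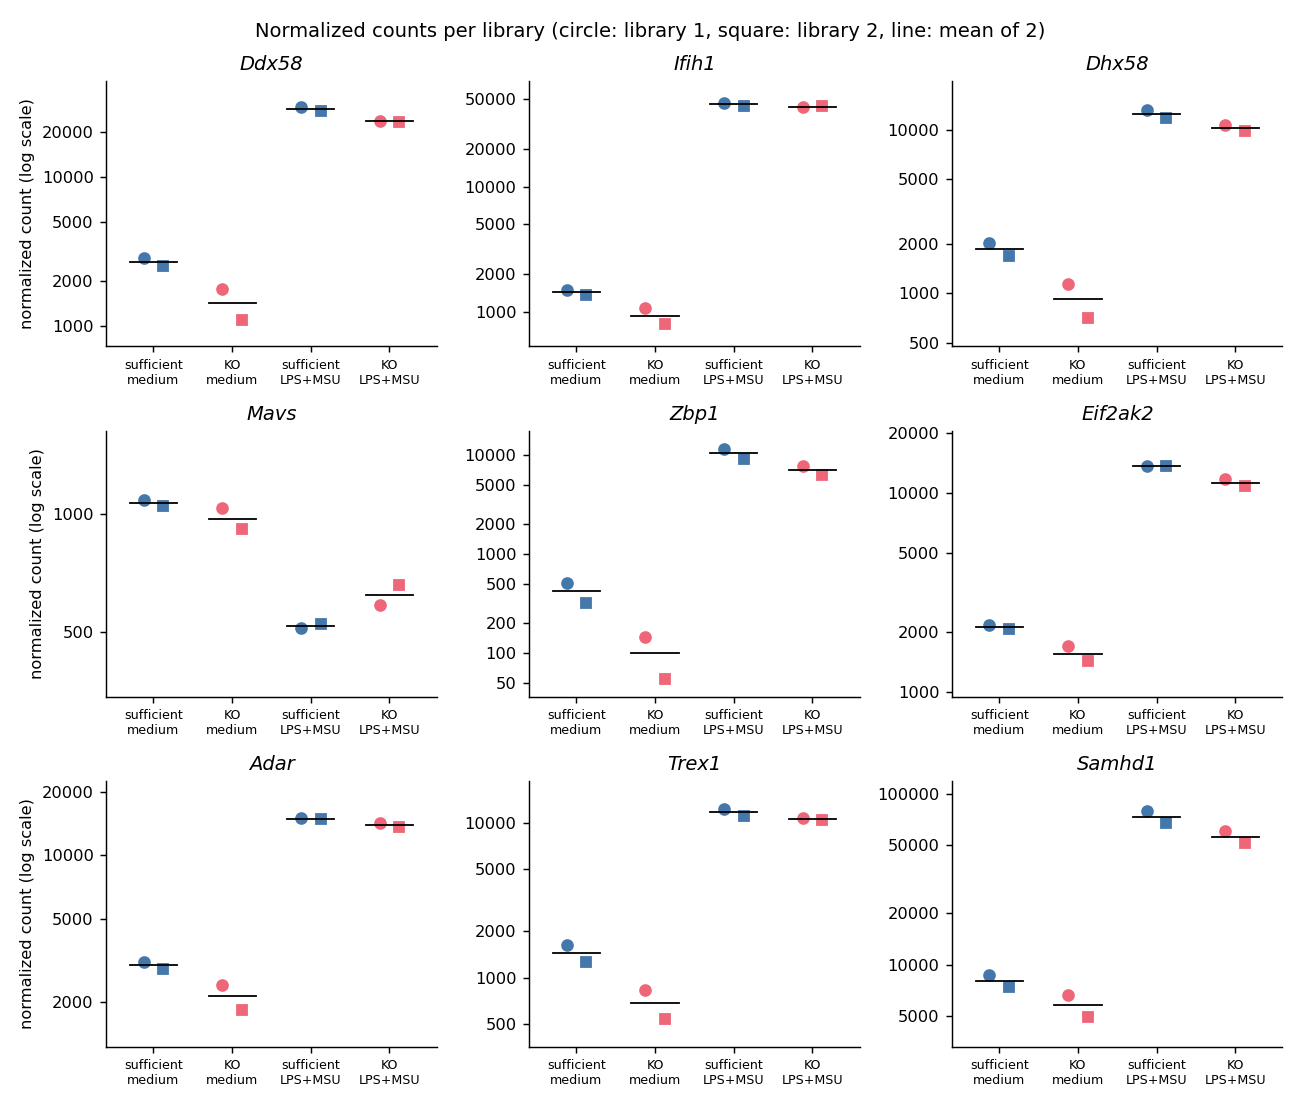
Normalized counts (vertical axes, log scale) of the 9 genes in the 8 libraries, by genotype and culture condition (horizontal axis). Circles are first libraries, squares second libraries and lines the mean of 2. All genes but *Mavs* lie higher with LPS + MSU, and in medium alone the *Ncoa6*-KO points lie under the *Ncoa6*-sufficient points in each panel.

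Of the receptors, *Ddx58* had 2887 and 2519 normalized counts in unstimulated *Ncoa6*-sufficient BMDMs and 1785 and 1098 in unstimulated *Ncoa6*-KO BMDMs. All values of libraries here and below are given first library first. The *Ncoa6*-KO libraries held 53.4% of the *Ncoa6*-sufficient level by the fit (log2 fold change -0.91, standard error 0.18, adjusted p = 0.0375 by edgeR), with no overlap between genotypes, and leaving out any library but the first *Ncoa6*-KO library in medium took the adjusted p above the threshold. *Dhx58* had 2024 and 1703 normalized counts against 1140 and 711. It fell by 1.01 on the log2 scale (standard error 0.19, adjusted p = 0.0250 by edgeR), and the genotypes again did not overlap. The call of *Dhx58* was lost without either *Ncoa6*-sufficient library in medium or without the second *Ncoa6*-KO library in medium, with adjusted p up to 0.289. *Ifih1* had 1506 and 1353 normalized counts against 1069 and 794, which on the log2 scale was -0.62 (standard error 0.14) and did not pass (adjusted p = 0.0575 by edgeR).

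*Mavs*, the adaptor of RIG-I and MDA5, had the smallest fold difference of the 9 with medium alone. It had 1088 and 1051 normalized counts in unstimulated *Ncoa6*-sufficient and 1036 and 916 in unstimulated *Ncoa6*-KO BMDMs, with a log2 fold change of -0.13 (95% confidence interval -0.35 to 0.09, adjusted p = 0.665 by edgeR).

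With medium alone *Zbp1* had the lowest counts of the 9 genes and the largest fold difference. Its normalized counts were 516 and 324 in unstimulated *Ncoa6*-sufficient and 144 and 54.4 in unstimulated *Ncoa6*-KO BMDMs, the last 2 values resting on 207 and 62 expected counts. The higher *Ncoa6*-KO library was below the lower *Ncoa6*-sufficient library. On the log2 scale the fold change was -2.05 (standard error 0.34, adjusted p = 0.0178 by edgeR), and it was called in all 8 fits that left out a single library except the one without the first *Ncoa6*-sufficient library in medium (-1.67, adjusted p = 0.218). Over these fits it ran from -2.95, without the first *Ncoa6*-KO library in medium, to -1.55, without the second. *Eif2ak2*, which encodes the translation-stopping kinase PKR, had 2168 and 2064 normalized counts against 1693 and 1422 (log2 fold change -0.44, adjusted p = 0.0765 by edgeR).

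Of the genes that edit or degrade nucleic acids or their precursors, *Trex1* had 1621 and 1263 normalized counts in unstimulated *Ncoa6*-sufficient and 836 and 539 in unstimulated *Ncoa6*-KO BMDMs. The fit left 47.8% of the *Ncoa6*-sufficient level (log2 fold change -1.06, standard error 0.18, adjusted p = 0.0209 by edgeR), lost without the first *Ncoa6*-sufficient library in medium (adjusted p = 0.249) and without the second *Ncoa6*-KO library in medium (adjusted p = 0.0626). *Adar* had 3121 and 2893 normalized counts against 2429 and 1846, and *Samhd1* had 8685 and 7394 against 6611 and 4960. Neither passed, with log2 fold changes of -0.49 (adjusted p = 0.0889 by edgeR) and -0.47 (adjusted p = 0.209), although the genotypes did not overlap in either gene.

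The libraries of 1 group were not alike in these genes. In unstimulated *Ncoa6*-KO BMDMs, the first library was above the second for all 9 genes, with ratios from 1.13 for *Mavs* to 2.64 for *Zbp1*. Over 11219 genes whose mean reached 50 normalized counts, the same ratio had a median of 1.01, and 1.37 was its 95th percentile. The 4 genes past that percentile, *Zbp1* at 2.64, *Ddx58* at 1.63, *Dhx58* at 1.60 and *Trex1* at 1.55, were the 4 genes called lower. In unstimulated *Ncoa6*-sufficient BMDMs the first library was also above the second for all 9 genes, from 1.03 for *Mavs* to 1.59 for *Zbp1*, with *Zbp1* and *Trex1* past the 95th percentile of 1.24. With LPS + MSU the first library was still the higher one for most of the 9 genes. Among *Ncoa6*-sufficient libraries this held for 8 genes, with *Mavs* at 0.977 the exception. For *Ncoa6*-KO libraries it held for 7, with *Mavs* at 0.889 and *Ifih1* at 0.976 the exceptions. The highest ratio with LPS + MSU was 1.26 in each genotype, and no gene was past the 95th percentile in either. The library that was higher for most of these genes thus had the same number in all 4 groups. The labels do not say what a number marks.

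**Figure D2:**
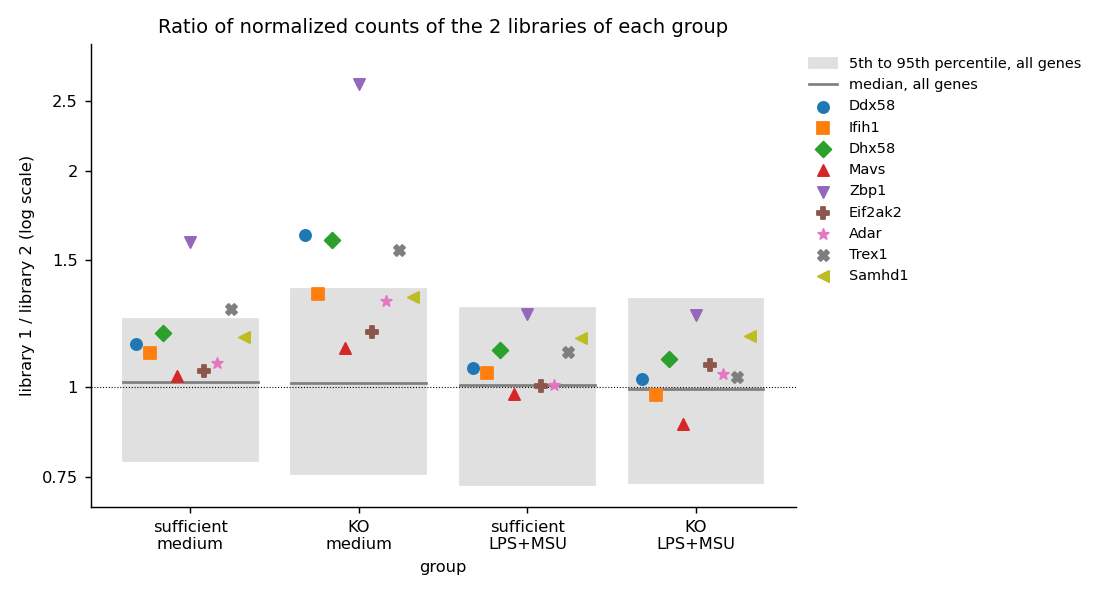
Ratio of the first to the second library (vertical axis, log scale) for each of the 9 genes in the 4 groups (horizontal axis), with the 5th to 95th percentile of all genes shaded and their median as a line. With medium alone all points lie above 1, up to 2.64 for *Zbp1* in *Ncoa6*-KO BMDMs, and with LPS + MSU all lie within the shading.

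With LPS + MSU, none of the 9 genes was called between the genotypes by edgeR, while 3.59% of all genes were. At an unadjusted p under 0.05, 3 of the 9 differed, *Mavs*, *Eif2ak2* and *Samhd1*, against 17.4% of all genes. *Mavs* was above and the other 8 genes were below the *Ncoa6*-sufficient libraries without overlap, arrangements that 24.7% and 22.7% of all genes had. The median log2 fold change of the 9 genes was -0.27, and that of all genes tested was 0.00039.

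With LPS + MSU the intervals of all 3 receptors included 0. *Ifih1* had 46417 and 44378 normalized counts in *Ncoa6*-sufficient and 42979 and 44045 in *Ncoa6*-KO BMDMs, a log2 fold change of -0.06 (95% confidence interval -0.36 to 0.24). *Ddx58* had 29371 and 27615 against 23941 and 23366 (-0.27, 95% confidence interval -0.67 to 0.13), and *Dhx58* had 13279 and 11793 against 10735 and 9817 (-0.29, 95% confidence interval -0.68 to 0.11). *Mavs* had 514 and 526 normalized counts in *Ncoa6*-sufficient and 587 and 660 in *Ncoa6*-KO BMDMs, the one gene of the 9 whose *Ncoa6*-KO libraries were the higher ones (log2 fold change 0.26, adjusted p = 0.237 by edgeR).

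*Zbp1* again had the lowest log2 fold change of the 9. It had 11676 and 9234 normalized counts against 7870 and 6243, a log2 fold change of -0.57 (95% confidence interval -1.18 to 0.05, adjusted p = 0.331 by edgeR). *Eif2ak2* had 13548 and 13524 against 11630 and 10828 (-0.27, adjusted p = 0.219). *Samhd1*, the most counted of the 9, had 79110 and 67592 against 60580 and 51477 (-0.39, adjusted p = 0.240). *Adar* and *Trex1* had log2 fold changes of -0.10 (95% confidence interval -0.38 to 0.18) and -0.15 (95% confidence interval -0.54 to 0.24). The 12304 and 11015 normalized counts of *Trex1* in *Ncoa6*-sufficient BMDMs stood against 10702 and 10356, and the 15025 and 14913 of *Adar* against 14235 and 13673.

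**Figure D3:**
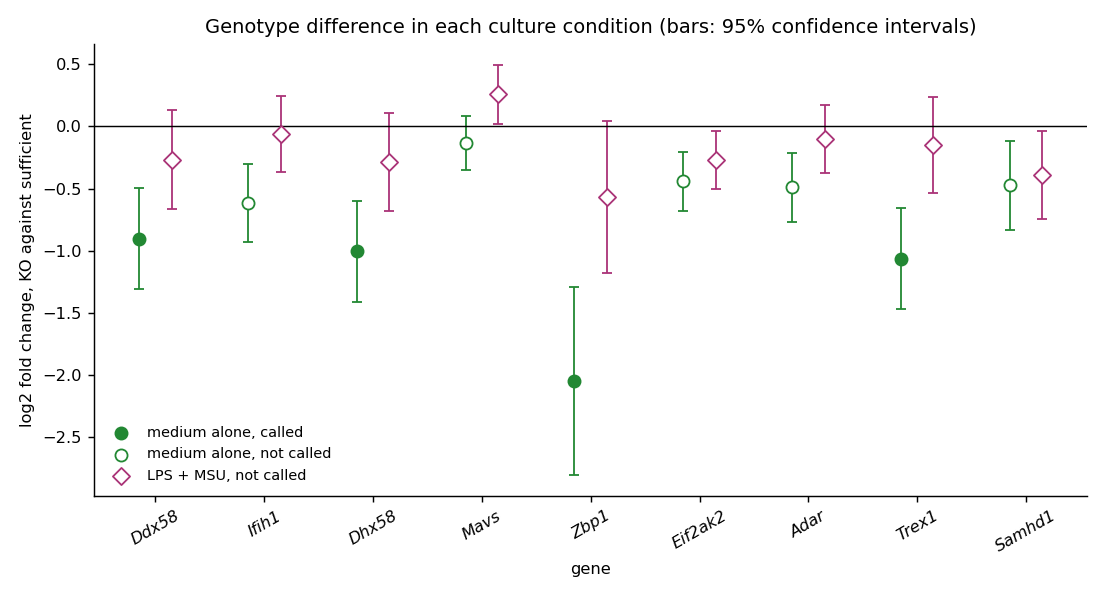
Log2 fold change of *Ncoa6*-KO against *Ncoa6*-sufficient BMDMs (vertical axis) for the 9 genes (horizontal axis) with medium alone (circles) and LPS + MSU (diamonds), with 95% confidence intervals from edgeR as bars. Filled symbols passed an adjusted p of 0.05, which 4 genes did with medium alone and none with LPS + MSU.

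Levels of macrophage markers moved with genotype beside these genes. The 8 markers summed to between 13252 and 15550 CPM in unstimulated *Ncoa6*-sufficient and between 8487 and 9819 CPM in unstimulated *Ncoa6*-KO BMDMs, and to between 17318 and 19695 against between 12510 and 13412 with LPS + MSU. Without *Lyz2*, the locus that holds Cre in the *Ncoa6*-KO mice, the sums were 6097 to 6274 against 4669 to 5470 in medium and 9908 to 10479 against 8308 to 9001 with LPS + MSU. *Lyz2* (log2 fold change -1.01), *Cd14* (-0.78) and the Fc receptor gene *Fcgr1* (-2.05) were called lower with medium alone, and *Lyz2* (-0.95), *Fcgr1* (-1.38) and *Itgam* (-0.51) with LPS + MSU, while *Csf1r*, *Cd68*, *Adgre1* and *Mertk* were called in neither. The dendritic cell list summed to 131 to 231 CPM against 81.6 to 115 CPM in medium and to 483 to 695 against 376 to 511 with LPS + MSU, mostly from *Bst2*, while the endothelial list summed to 18.2 to 24.3 against 12.5 to 12.9 CPM in medium and to 223 to 236 against 104 to 186 with LPS + MSU. Their part in the differences of the 9 genes was not tested.

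LPS + MSU changed all 9 genes in both genotypes, 8 of them upward and *Mavs* downward. Of all genes tested, 24.7% were called higher and 30.5% lower in *Ncoa6*-sufficient BMDMs, and 25.2% and 27.9% in *Ncoa6*-KO BMDMs. The median log2 fold change of the 9 genes was 3.01 (*Ncoa6*-sufficient) and 3.47 (*Ncoa6*-KO), against -0.12 and -0.07 over all genes. Scaling by DESeq2's size factors moved the median of all genes by 0.11 in *Ncoa6*-sufficient BMDMs, small beside these responses, and *Mavs* was called lower and the other 8 genes higher in both genotypes under each alternative. Scaling by library totals alone was not among the alternatives. The scaling factors of the fit ran from 0.766 to 0.829 with LPS + MSU and from 1.23 to 1.29 in medium, so the responses depend on this scaling.

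*Ifih1* had the largest response in *Ncoa6*-sufficient BMDMs, 4.99 on the log2 scale (standard error 0.16, adjusted p = 1.31e-09 by edgeR), and rose by 5.54 (standard error 0.17) in *Ncoa6*-KO BMDMs. *Zbp1* rose by 4.63 (standard error 0.33) and by 6.11 (standard error 0.37), the largest value of the 9 genes in *Ncoa6*-KO BMDMs. The other receptors rose by 3.40 and 4.03 for *Ddx58* and by 2.75 and 3.47 for *Dhx58*, in *Ncoa6*-sufficient and *Ncoa6*-KO BMDMs in this order. The nuclease *Trex1* rose by 3.01 and 3.93 and the deoxynucleotide hydrolase *Samhd1* by 3.19 and 3.28. *Eif2ak2* at 2.68 and 2.85 and *Adar* at 2.32 and 2.71 had the smallest rises. *Mavs* fell by 1.04 (standard error 0.10, adjusted p = 6.19e-06 by edgeR) and by 0.65 (standard error 0.10, adjusted p = 0.000260 by edgeR). The mRNAs of RIG-I and MDA5 thus rose while that of the adaptor they share fell.

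**Figure D4:**
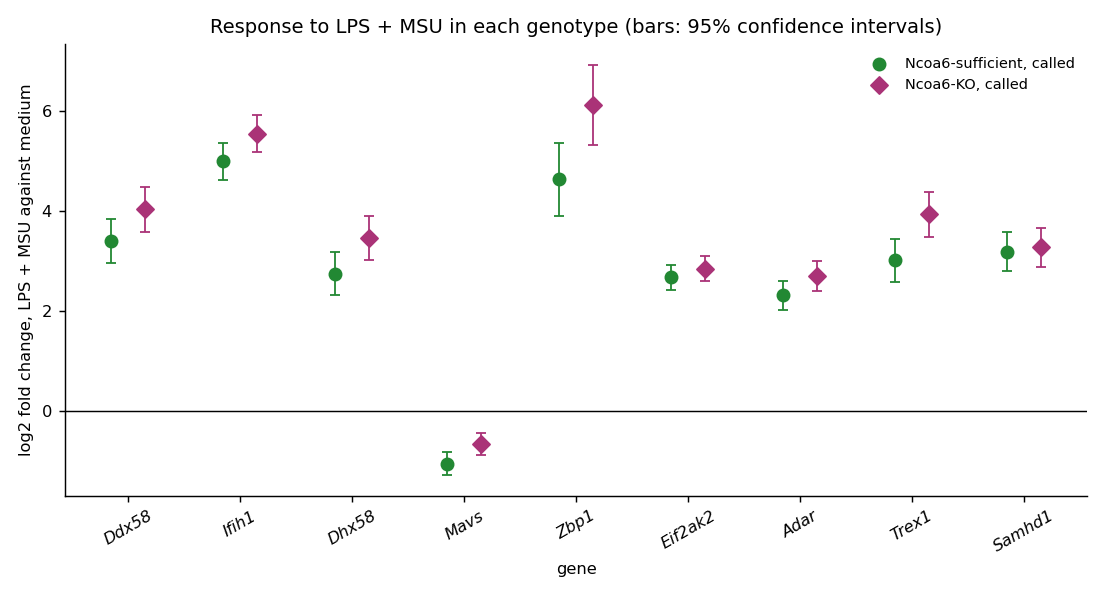
Log2 fold change of LPS + MSU against medium alone (vertical axis) for the 9 genes (horizontal axis) in *Ncoa6*-sufficient (circles) and *Ncoa6*-KO BMDMs (diamonds), with 95% confidence intervals from edgeR as bars. Every symbol is filled because every gene passed in both genotypes, and *Mavs* alone lies under 0.

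Whether the response differed between genotypes was tested by the interaction term. No gene of the 9 passed (adjusted p from 0.536 to 0.999 by edgeR), nor did any gene of the 17625 (0%), where 1045 had an unadjusted p under 0.05 by edgeR and DESeq2 called 43. This depended on the fit. Without the filter on low counts, 4 of the 9 genes were called, among 269 genes in all. With the replicate number as a block across all groups, 2 were called, among 86 genes in all. Within genotype the block gave 6, among 444 genes in all. Whether that number pairs the libraries is not known. The interaction value was above 0 for all 9 genes, that is, a larger log2 rise or, for *Mavs*, a smaller fall in *Ncoa6*-KO BMDMs. At an unadjusted p under 0.05 it was above 0 for 6 of the 9, and over all genes that held for 4.11%. The largest values were 1.48 for *Zbp1* (95% confidence interval 0.51 to 2.46, unadjusted p = 0.00656 by edgeR) and 0.92 for *Trex1* (95% confidence interval 0.36 to 1.48, unadjusted p = 0.00425 by edgeR). *Dhx58* at 0.72, *Ddx58* at 0.64, *Ifih1* at 0.56 and *Mavs* at 0.39 were the other 4, and *Adar* at 0.39, *Eif2ak2* at 0.17 and *Samhd1* at 0.09 were not among them. When single libraries were left out, the interaction value of *Zbp1* ran from 0.98 to 2.38. The interaction uses the same libraries as both genotype comparisons, so it is no separate evidence of the difference in medium.

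Per exon length, the order of the genes changed with the stimulus. The scale here is FPKM, that is, fragments per kilobase of annotated exon scaled to the effective library size. It takes all annotated exons of a gene, not the transcripts expressed, so comparisons between genes are approximate. The level of *Trex1* also rests on the division of reads with *Atrip*. In unstimulated *Ncoa6*-sufficient BMDMs, *Trex1* stood highest with 42.9 ± 7.53 FPKM (SD, n = 2), then *Samhd1* with 32.4 and 27.5 FPKM in its libraries and *Dhx58* at 19.4 ± 2.36. *Eif2ak2*, *Ddx58* and *Adar*, at 14.1, 13.1 and 12.6 FPKM, were neighbors, and the range of *Ddx58* over its libraries (12.2 to 14.0) overlapped those of both others, while that of *Eif2ak2* (13.8 to 14.5) lay above that of *Adar* (12.1 to 13.1). *Mavs* at 10.9 ± 0.262, *Ifih1* at 5.97 ± 0.452 and *Zbp1* at 4.06 ± 1.31 FPKM followed without overlap.

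With LPS + MSU the order in *Ncoa6*-sufficient BMDMs was *Trex1* at 347 ± 27.1, *Samhd1* at 273 ± 30.3, *Ifih1* at 190 ± 6.02, *Ddx58* at 138 ± 6.00, *Dhx58* at 131 ± 11.0, *Zbp1* with 113 and 89.2 in its libraries, *Eif2ak2* at 90.3 ± 0.114, *Adar* at 62.9 ± 0.331 and *Mavs* at 5.30 ± 0.0871 FPKM (SD, n = 2 each where a SD is given). The library ranges of *Ddx58* and *Dhx58* overlapped, as did those of *Zbp1* and *Eif2ak2*, and no other neighbors did. The ratio of *Ddx58* to *Ifih1* was 2.22 and 2.16 in unstimulated *Ncoa6*-sufficient libraries and 0.733 and 0.721 with LPS + MSU. In *Ncoa6*-KO libraries the ratio was 1.93 and 1.60 when unstimulated and 0.645 and 0.614 with LPS + MSU. On this scale RIG-I mRNA was thus ahead in every library in medium and MDA5 mRNA in every library with LPS + MSU. Which gene is ahead depends on the exon lengths used, whereas the fall of the ratio with LPS + MSU does not.

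In unstimulated *Ncoa6*-KO BMDMs, *Samhd1* at 21.6 ± 4.35 and *Trex1* at 20.4 ± 6.25 FPKM overlapped, and *Eif2ak2* at 10.4 ± 1.28, *Mavs* at 9.95 ± 0.865, *Dhx58* at 9.65 ± 3.16 and *Adar* at 8.98 ± 1.73 overlapped as well. *Ddx58* at 6.97 ± 2.35, whose range reached into those of *Dhx58* and *Adar*, *Ifih1* at 3.89 ± 0.813 and *Zbp1* at 0.958 ± 0.611 were below them. The *Ncoa6*-KO libraries held 1.39 and 0.526 FPKM of *Zbp1* mRNA when unstimulated, and LPS + MSU took this to 76.0 and 60.3 FPKM. The remaining levels of *Ncoa6*-KO BMDMs with LPS + MSU ran from 6.36 FPKM for *Mavs* to 313 FPKM for *Trex1*.

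**Figure D5:**
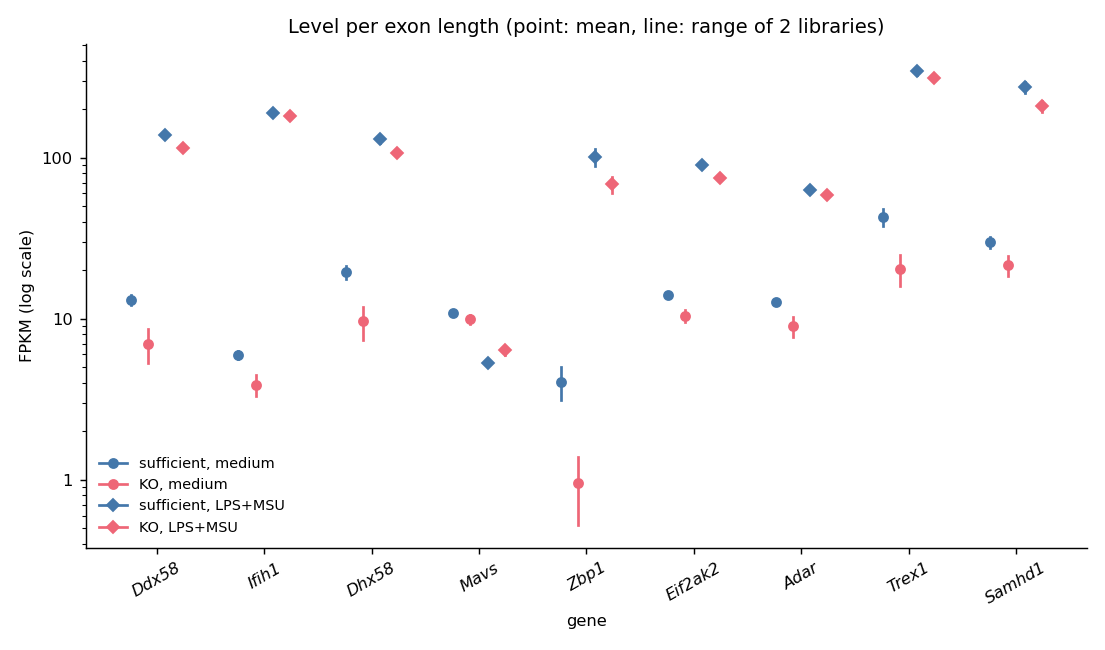
Level per exon length (FPKM, vertical axis, log scale) of the 9 genes (horizontal axis) in the 4 groups, with points for the mean and lines for the range of 2 libraries. *Trex1* and *Samhd1* stand highest with LPS + MSU, *Mavs* lowest, and *Ifih1* passes *Ddx58* between medium and LPS + MSU.

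Further genes of the same pathways were taken from 7 lists with 48 genes in all, of which 47 were matched to a row and tested and 1 is not analysed here. With medium alone, 1 of the 47 was called between genotypes, the transcription factor gene *Irf7*, which was lower in *Ncoa6*-KO BMDMs, beside 1.3% of all genes called lower. It had 2857 and 2281 normalized counts in *Ncoa6*-sufficient and 1101 and 680 in *Ncoa6*-KO BMDMs, without overlap. This was a change of -1.53 on the log2 scale with a standard error of 0.20 (adjusted p = 0.00568 by edgeR, 0.0797 without the first *Ncoa6*-sufficient library in medium). The median of the 47 was -0.10. With LPS + MSU none of the 47 was called by edgeR (3.59% of all genes were), and 7 had an unadjusted p under 0.05, a share no larger than the 17.4% of all genes.

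With medium alone, the 8 ubiquitin ligases and cofactors of the receptors had log2 fold changes with a median of -0.08, 1 of them at an unadjusted p under 0.05. They ran from -0.77 for *Ddx60*, a cofactor of RIG-I (adjusted p = 0.119 by edgeR), to 0.94 for the ubiquitin ligase *Rnf125* (adjusted p = 0.677 by edgeR). The value of *Rnf125* rests on few reads, 6 and 2 expected counts in *Ncoa6*-sufficient and 9 and 7 in *Ncoa6*-KO libraries. The 9 genes that act downstream of MAVS had a median of -0.10, and 3 had an unadjusted p under 0.05, *Irf7*, *Ikbke* (-0.44), which encodes the kinase IKKε, and *Irf3* (-0.24), the relative of *Irf7*. These 3 were lower in *Ncoa6*-KO BMDMs, and 7.86% of all genes tested were lower at that unadjusted threshold. The adaptor genes *Traf3* and *Traf6* had 0.07 and 0.13, and the kinase gene *Tbk1* had -0.10. *Cgas*, the cytosolic DNA sensor, had 538 and 545 normalized counts against 379 and 451 (-0.39, adjusted p = 0.104 by edgeR). Of the 5 partners of ZBP1 in cell death, *Ripk3* had -0.44, *Mlkl* -0.45, *Casp8* -0.30, *Fadd* -0.19 and *Ripk1* -0.06, with a median of -0.30 and none past the adjusted threshold. The other DExD/H helicases had a median of -0.04 and none of 8 had an unadjusted p under 0.05. The PKR partners and other eIF2α kinases had a median of -0.07, likewise with none of 6, and the 10 genes of nucleic acid editing and degradation had a median of -0.16, led by *Apobec3* at -0.57 (adjusted p = 0.0566 by edgeR).

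LPS + MSU raised 21 and lowered 15 of the 47 genes in *Ncoa6*-sufficient BMDMs, and raised 22 and lowered 15 in *Ncoa6*-KO BMDMs. Over all genes, 24.7% were raised and 30.5% lowered in the former and 25.2% and 27.9% in the latter, so the lowered genes were near their background share. In *Ncoa6*-sufficient BMDMs, *Irf7* rose by 4.26 on the log2 scale, *Ddx60* by 3.82, *Ikbke* by 2.80 and the RIG-I ubiquitin ligase *Rnf135* by 2.49. *Ifnb1*, which encodes interferon-β, had 1 or 2 expected counts in each library with medium alone while LPS + MSU libraries had 241 and 184 (*Ncoa6*-sufficient) and 156 and 112 (*Ncoa6*-KO), so no fold is given. Of the ZBP1 partners, *Mlkl* rose by 2.83 and *Casp8* by 1.87, while *Fadd* fell by 1.32 and *Ripk3* by 0.74. Of the kinases that share the target of PKR, *Eif2ak3* fell by 2.56 and *Eif2ak4* fell by 1.76, and *Eif2ak1* did not pass (log2 fold change -0.22, adjusted p = 0.103 by edgeR). *Apobec3* rose by 2.32, *Zc3hav1* by 1.74 and *Rnaset2b* by 1.57, and *Cgas* rose as well, by 1.51 in *Ncoa6*-KO BMDMs. *Adarb1*, the relative of *Adar*, fell by 2.27. That fall rests on few reads, 39 and 29 expected counts in medium against 3 and 5 with LPS + MSU in *Ncoa6*-sufficient libraries. Of the DExD/H helicases outside the 9 genes, 1 of 8 rose and 2 fell, with *Dhx33* at -1.07 the largest change.

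The genes whose log2 normalized counts were most like those of the 9 over the 8 libraries were sought among 11199 others whose mean reached 50 normalized counts. The 8 libraries fall into the 2 culture conditions, so these correlations describe mainly the response to LPS + MSU and carry no test. *Zbp1* was most like *Oasl2*, *Cxcl16* and *Ifi206*, *Trex1* most like *Isg15*, *Gm12250* and *Irf7*, and *Dhx58* most like *Ifi213*, *Gm12250* and *Ifi206*, with Pearson's r of at least 0.999. *Ddx58* was most like *Trim30a*, *Stat2* and *Trim30d*, and *Ifih1* most like *Birc3*, *Traf1* and *Cmpk2*. *Eif2ak2* was most like *Tap1*, *Adam17* and *Mvp*, *Adar* most like *Gbp3*, *Gm4070* and *Parp9*, and *Samhd1* most like *Cp*, *Tifa* and *Pml*. *Mavs* was most like *Ercc4* (r = 0.998), *Zswim6* and *Ppard*, and it was the one gene whose correlation with each of the other 8 was negative, from -0.952 with *Samhd1* to -0.888 with *Zbp1*.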

How the data were processed

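Poly(A) RNA of 8 BMDM libraries was sequenced from stranded, paired-end libraries. The authors deposited expected counts per gene, not normalized, made with STAR 2.7.3a and RSEM 1.3.3 on GRCm38 by the submitters' processing notes. These were rounded, and a gene entered the tests if its 8 counts added up to at least 10, as in the study's methods. Group means were fitted with the quasi-likelihood method of edgeR 4.0.16 (R 4.3.3, TMM scaling), which left 4 residual degrees of freedom. Genes were called at a Benjamini-Hochberg adjusted p under 0.05 over the 17625 genes tested. The TMM factors ran from 0.766 to 0.829 in the LPS + MSU libraries and from 1.23 to 1.29 in the medium libraries. The responses to LPS + MSU thus depend on this scaling, and scaling by library totals alone was not among the alternatives. An exact permutation test of 2 against 2 libraries cannot go below 0.333, so p-values come from the edgeR model, which moderates each gene's spread by that of all genes. They reflect the spread between libraries within groups. Libraries were fitted as unpaired, and whether cultures in medium and with LPS + MSU shared mice is not known. Normalized counts are counts scaled to a mean effective library size of 29332189. FPKM used the union of annotated exons (GENCODE, GRCm38). Promoter sequences came from RefSeq (GRCm38.p6).

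The 9 genes, the pathway and marker lists and the tests were chosen with earlier results of these data known. The genes named beside the 9 were *Ncoa6*, pathway genes called between genotypes, up to 3 per list with the largest response in *Ncoa6*-sufficient BMDMs, and for likeness the 3 with the highest Pearson correlation for each of the 9 (log2 of the normalized count plus 1). *Ripk3*, *Eif2ak1* and the pathway genes beneath the threshold were named after their values were seen. The alternatives were DESeq2 1.42.0, its size factors in edgeR, filterByExpr, no filter, limma-voom (limma 3.58.1) without rounding, a replicate block over the whole design or inside each genotype, only the 4 libraries compared, and leaving out each library in turn. The code was tested on simulated data.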

Additional observations from a re-analysis of the deposited data

How the results depend on the processing

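The 9 genes kept the direction of all 5 of their values under every alternative, except that the interaction value of *Samhd1* ranged from -0.11 to 0.31 when single libraries were left out, and that of *Ncoa6* from -0.28 to 0.051. Without the filter on low counts, 1152 genes were called between genotypes with medium alone (331 in the fit reported) and 1611 with LPS + MSU (632), with 8 (4) and 2 (0) of the 9 genes. The interaction then had 269 genes (0) and 4 of the 9. DESeq2 called 7 of the 9 genes with medium alone and 43 genes in the interaction, with none of the 9. A fit of only the 4 libraries compared called 139 genes with LPS + MSU. Leaving out single libraries gave from 22 to 372 genes with medium alone, from 58 to 761 with LPS + MSU and from 0 to 23 in the interaction, and from 0 to 7 of the 9 genes with medium alone. These fits assume that the remaining library of a group varies like the others. The causes of these shifts were not tested.

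Over 11208 genes, same-numbered libraries deviated from their group means with correlations from 0.191 to 0.353 when they shared genotype or condition. Across both genotype and condition the correlations were 0.0420 and 0.124. The labels do not say that a number marks a mouse or a day, so whether same-numbered libraries share either is not known. With the replicate number as a block across all groups, 1023 genes were called with medium alone, 1532 with LPS + MSU and 86 in the interaction, and 8, 2 and 2 of the 9 genes. With the replicate block within each genotype these were 1893, 2594 and 444 genes, and 8, 4 and 6 of the 9. Depth limits *Zbp1* in medium most, with 62 expected counts in its lowest library.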
